A study of Caenorhabditis elegans with 4 samples.

Results

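The binding sites of the transcription factor NHR-11 on chromosome II of Caenorhabditis elegans are described here. They were chosen by chromosome alone. Of the 6799 sites that the authors listed for the series, 962 lie on II, as do 409 of the 2612 sites of ChIP replicate 1 and 450 of the 2834 sites of ChIP replicate 2. The series holds 2 chromatin immunoprecipitation (ChIP) libraries and 2 input libraries of genomic DNA without that selection. All came from hermaphrodites of strain OP305 harvested in the final larval stage, L4, after growth at 20 °C and fixation with 2% formaldehyde. For ChIP, an antibody against GFP was used. OP305 carries the mutation unc119(ed3) and the transgene wgIs305(nhr-11::TY1 EGFP FLAG;unc119), which was brought in by bombardment and supplies a tagged NHR-11 beside unc119. The sites are therefore those of a tagged protein made from a transgene, and sites of an untagged strain were not analysed here. The labels describe no change to the worm's own nhr-11 gene. Separate cultures for the replicates are not stated, so the spread between them may be technical.

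Nuclear hormone receptors bind DNA through a pair of zinc fingers, and many of them change their activity when a small lipophilic ligand sits in a second domain. The family is greatly enlarged in nematodes, and for most of its worm members no ligand is known. The worm's autosomes have a central part with many broadly expressed genes and little recombination, flanked by arms with more repeats and more recombination. The arms are known to lie closer to the nuclear edge and to carry more silencing marks than the centres.

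Each site has a start and an end in build WS220 of WormBase and 1 significance value, taken here as a p-value or a q-value. Its −log10 is used below as the strength of a site and ranks it within its own list. Whether strengths of different lists share a scale is not known. A site counted as found in a list when it overlapped one of its sites by at least 1 bp. The files hold no read counts, so the depth behind a site is unknown. Intervals are exact 95% Clopper-Pearson intervals for shares, exact Poisson intervals for densities and Newcombe intervals for differences, and cover counting error only. Genes at the sites were not analysed here, because no annotation of build WS220 was used.

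Chromosome II carried close to its share of NHR-11 sites in the replicate lists and somewhat less in the series-level list. It makes up 15.2% of the span of the 6 chromosomes and held 14.1% of the series-level sites (13.3 to 15.0). Its share was 15.7% in the list of replicate 1 (14.3 to 17.1) and 15.9% in that of replicate 2 (14.6 to 17.3). Densities were 63.0 sites per Mb at series level (59.1 to 67.2), 26.8 in replicate 1 and 29.5 in replicate 2. On the other autosomes together they were 71.5 (69.5 to 73.6), 26.2 and 28.4 in that order. Single autosomes ranged from 46.5 on V to 95.4 on IV at series level. The sites of II covered 3.08%, 1.47% and 1.62% of the chromosome in the same order of lists. Of the series-level sites, 320 were found in both replicates. These form the set used below unless another is named, and their density was 20.97 per Mb (18.7 to 23.4), inside the range of the other autosomes (13.5 on V to 24.9 on I).

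The sites were unevenly spread along II. By midpoint, the left arm (below 4.879 Mb) held 49 of the 320 sites, the centre (up to 12.02 Mb) 212 and the right arm 59. The left arm takes up 32.0% of the span and held 15.3% of the sites (11.5 to 19.7). The centre takes up 46.8% and held 66.3% (60.8 to 71.4). The left arm was therefore below its share of length and the centre above it, each by an exact two-sided binomial test (adjusted p = 2.36e-11 for the left arm and 9.14e-12 for the centre, over 3 domains). The right arm, with 21.2% of the span and 18.4% of the sites (14.3 to 23.1), did not pass (exact binomial adjusted p = 0.245). Sites are the units of these tests and neighbouring sites depend on each other, so the p-values are not p-values across replicates.

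Both replicate lists gave the same picture. The left arm had 12.9 sites per Mb in replicate 1 and 13.7 in replicate 2. The centre had 37.9 and 42.4, and the right arm 23.2 and 24.7. In bins of 1 Mb, the sites found in both replicates numbered 12, 5, 10 and 7 in the first 4 bins and 20 in the next, which crosses the limit of the left arm. The 7 bins after it held 24 to 37 each, with the highest count from 9000001 to 10000000. Bins 13 to 15, which lie almost wholly in the right arm, held 15, 20 and 20.

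The domain limits fell between well separated sites. The last site of the left arm and the first of the centre were at 4851612 to 4852004, with a series-level strength of 15.0, and at 4888769 to 4889537, with 18.4. Around the right limit they were at 11979320 to 11980379 in the centre, with 29.7, and at 12041983 to 12042810 in the right arm, with 11.9. The midpoint nearest to a limit was 10.2 kb from it.

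The centre share of II did not differ detectably from that of the other autosomes. It was 66.3% on II and 64.3% on I, III, IV and V together, a difference of 1.97 percentage points (95% interval -3.94 to 7.58; Fisher's exact test, adjusted p = 0.602 over 7 comparisons of II with the other autosomes). The test does not adjust for centre length, which is 46.8% of the span on II and 47.9% to 51.9% on the others. Relative to its arms, the centre of II had 2.23 times the density of sites, against 2.05 on V, 2.00 on I, 1.95 on III and 1.46 on IV. With the limits of II applied as fractions of length to every autosome, the centre difference was 7.58 points and passed (Fisher's exact test, p = 0.0132). Those fractions move the limits of the other autosomes, whose centre share fell to 58.7%.

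The left arm of II had the lowest density among the left arms. Its 10.0 sites per Mb (7.43 to 13.3) compare with 11.2 on V, 11.8 on III, 16.8 on I and 22.1 on IV. The interval of II overlaps those of V, III and I, the last only narrowly, and lies below that of IV (17.7 to 27.3). The centre of II was 2.96 times as dense as its left arm, against 2.42 on III, 2.00 on I, 1.61 on V and 1.18 on IV, and II had the highest of these 5 ratios in each replicate list too (2.94 and 3.09). The right arm of V was sparser than either arm of II, with 5.52 sites per Mb and a centre 3.27 times as dense. The order of the chromosomes was not tested. Among the arm sites of II, 45.4% lay in the left arm, against 54.6% on the other autosomes, a difference of -9.23 percentage points that did not pass (Fisher's exact test, p = 0.0884). The other autosomes were not alike, with 41.9% on III, 49.2% on I, 57.0% on IV and 73.3% on V. III was thus lower than II, and it was so in both replicate lists and the series-level list too. The left arm takes up 60.1% of the arm length of II and 46.3% to 57.6% of that of the others. The difference of II from the others together passed with the replicate 2 list alone (-9.90 points, Fisher's exact test, p = 0.0294). It did not pass with the replicate 1 list alone (-8.48 points, p = 0.0746 by Fisher's exact test). It also passed in the whole series-level list (-7.50 points, Fisher's exact test, p = 0.0102). With the limits of II as fractions of length the difference was -22.8 points (Fisher's exact test, p = 9.58e-06). Those fractions move the limits of the other autosomes, whose left-arm share rose to 68.2%. This last value therefore cannot tell a sparse left arm of II from the moved limits.

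**Figure D1:**
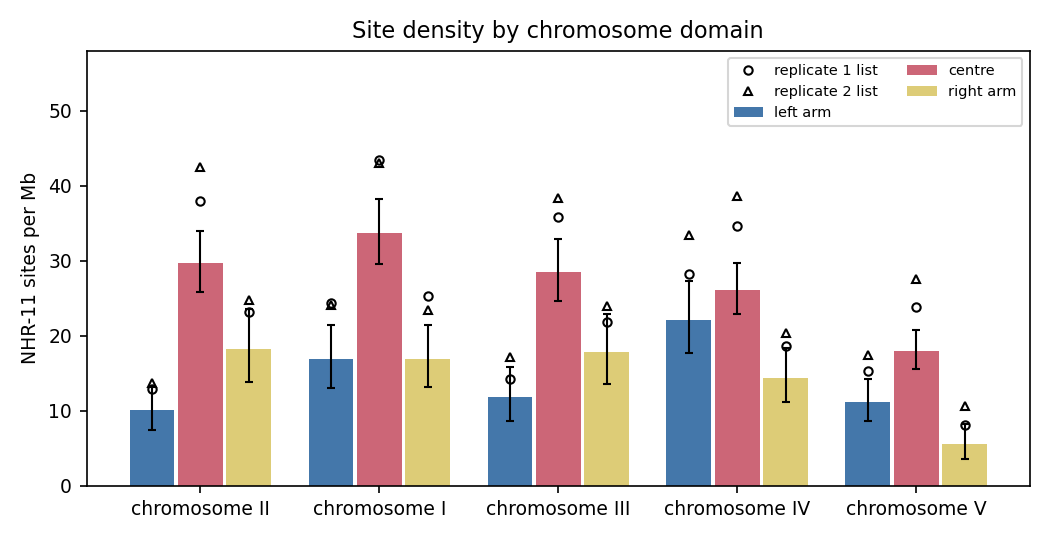
NHR-11 sites per Mb in the left arm, centre and right arm of each autosome. Bars are series-level sites found in both replicates with exact 95% Poisson intervals, circles are the replicate 1 list and triangles the replicate 2 list. On chromosome II the centre (29.7) stands above the right arm (18.2) and the left arm (10.0), in both replicate lists as well.

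Strong and wide sites made up smaller shares in the left arm. Of its 49 sites, 7 (14.3%) belonged to the strongest 10% of the series-level list, compared with 62 of 212 in the centre (29.2%) and 18 of 59 in the right arm (30.5%). Sites at least 1 kb wide numbered 3 in the left arm (6.12%), 48 in the centre (22.6%) and 7 in the right arm (11.9%). Median widths were 429, 514 and 457 bp, and median strengths were 11.9, 14.1 and 12.8, in the same order of domains. Over all sites of the replicate 1 list the median strengths were 4.33, 5.20 and 4.55, and over those of replicate 2 they were 4.996, 5.56 and 4.95, so in replicate 2 the right arm was no higher than the left. These differences within the chromosome were not tested.

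Over the whole chromosome, 2 shares did not differ detectably from the other autosomes. They were that of strong sites in the series-level list and that of broad sites among those found in both replicates. Of all series-level sites, 9.99% belong to the strongest 10% by definition. On II the share was 9.04% (87 of 962) and on the other autosomes it was 10.4% (Fisher's exact test, adjusted p = 0.499; difference -1.34 points, -3.22 to 0.805). The sign turned in the replicate lists, where the difference was 0.673 points in replicate 1 and 0.602 in replicate 2. Among the sites found in both replicates, 27.2% on II and 37.2% on the other autosomes belonged to the strongest 10% of the series-level list. The share was 26.9% on III, 27.3% on V, 43.3% on I and 46.4% on IV. This difference was not tested. Series-level strengths stood higher relative to the sum of the replicate strengths on I and IV, for sites found as 1 piece in each replicate. The median ratios were 1.40 on I and 1.39 on IV, against 1.09 on II, 1.05 on III and 1.03 on V. The part of this scale in the shares of strong sites was not tested. The median strength on II was 5.03 in replicate 1 and 5.38 in replicate 2, against 4.80 to 5.29 and 4.87 to 5.501 on the 4 other autosomes.

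Sites at least 1 kb wide made up 16.3% of all series-level sites found in both replicates. They made up 18.1% on II (58 of 320) and 15.5% on the other autosomes (Fisher's exact test, adjusted p = 0.499; difference 2.65 points, -1.69 to 7.60). In the whole series-level list they made up 7.69% on II and 5.70% on the other autosomes, which passed before adjustment (Fisher's exact test, p = 0.0213). The difference also passed in the stronger 50% of the sites found in both (8.71 points, Fisher's exact test, p = 0.0419), and it turned to -5.97 points for sites of 500 bp or wider (Fisher's exact test, p = 0.0617). The median width on II was 482 bp, with a middle range of 375 to 805 bp, against 489 to 546 bp as medians of the other autosomes. The 58 broad sites of II accounted for 48.0% of the bases covered by its 320 sites, compared with 35.2% on IV to 43.3% on III. The widest of the 58 alone spans 12525 bp of the 245.254 kb covered. On the other autosomes the widest site found in both replicates ran from 4273 bp on III to 9256 bp on V. The whole series-level list held a site of 11525 bp on IV. Wider sites had higher strengths, with a Spearman's rho of 0.48 across the 320 sites as a description.

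The strongest NHR-11 site of chromosome II is also the strongest of every list. It spans 10541878 to 10554402 and had a strength of 257 in the series-level list, 115 in replicate 1 and 114 in replicate 2. It is 12525 bp wide and was called as 1 piece in each replicate, which covered 99.6% and 97.7% of it. It alone made up 2.67% of the bases covered by series-level sites on II. The next strongest site of II, at 8741853 to 8748223, reached 141, so the first stands far from the rest.

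A run of further sites flanks it on the side of higher coordinates. In the series-level list 3 wide sites follow within 10 kb of its end, at 10554636 to 10557667, 10558282 to 10560355 and 10562050 to 10563964, with strengths of 36.1, 36.5 and 17.5. The first of them had 12.5 in replicate 1 and 16.8 in replicate 2, and the second had 16.3 and 15.9. Another, 403 bp wide, lies at 10569373 to 10569775 with 16.2. On the other side the nearest site found in both replicates is at 10502275 to 10503211, with 31.9 in the series-level list, 18.4 in replicate 1 and 13.3 in replicate 2.

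**Figure D2:**
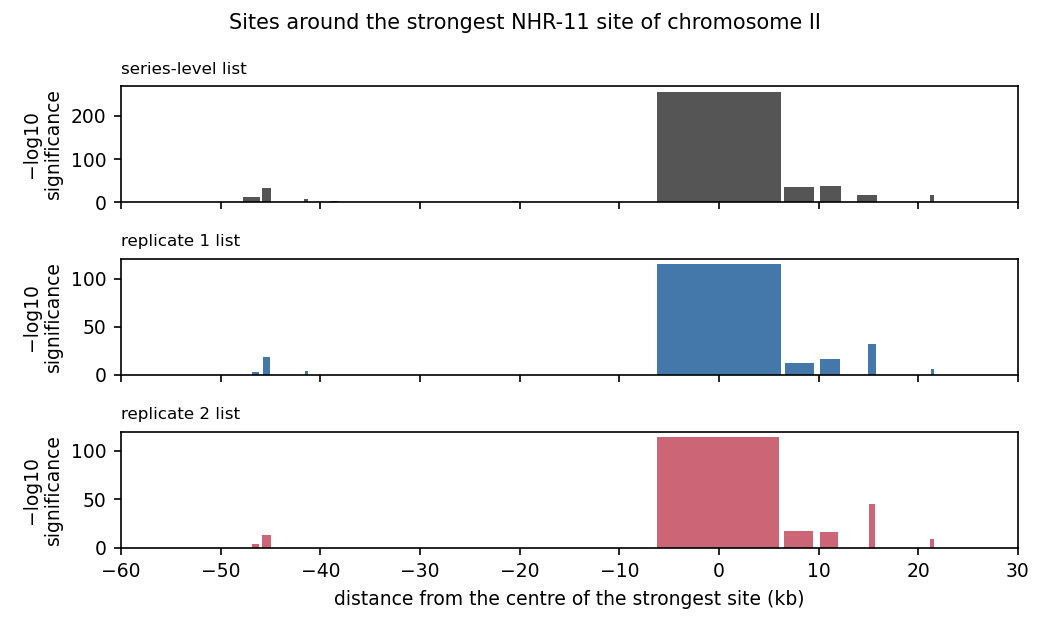
Sites of each list around the strongest NHR-11 site of chromosome II, by distance in kb from its centre. Each bar spans 1 site and its height is the −log10 significance in that list (linear axes that differ between panels). The central site reaches 257, 115 and 114, and the site to its right at about 15 kb is taller in the replicates (31.9 and 44.9) than in the series-level list (17.5).

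The third flanking site behaved unlike the others. Its series-level strength of 17.5 (rank 837) was below both its strength in replicate 1, 31.9 (rank 36), and that in replicate 2, 44.9 (rank 18). In the replicates it was 813 and 608 bp wide, within the 1915 bp of the series-level site. Of the 312 sites of II found in both replicates as 1 piece each, it was the only one with a series-level strength below that of the stronger replicate. The number below both replicates was 0 of 361 on I, 0 of 285 on III, 0 of 376 on IV and 0 of 271 on V. On V, 1 site was below the stronger replicate only.

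The 20 strongest series-level sites of II were all found in both replicates, and 18 of them lie in the centre. Recovery was also high among the strongest 20% of the series-level sites of each group, with 187 of 193 on II and 916 of 961 on the other autosomes. Of the 20, 16 ranked among the 20 strongest of II in both replicates. They were 431 to 12525 bp wide (median 1289 bp), and 13 were 1 kb or wider.

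Most of the strongest sites after the first were wide. The site at 8741853 to 8748223 had 52.6 in replicate 1 and 31.0 in replicate 2, where it was cut into 2 and 3 pieces. The site at 11633595 to 11637537, 3943 bp wide, had 104 in the series-level list, 46.6 in replicate 1 and 48.8 in replicate 2. The site at 10444821 to 10448909, 4089 bp wide and about 100 kb from the strongest one, had 76.0, 30.6 and 37.5 in the same lists. The site at 6346529 to 6349003 had 79.4, 28.3 and 33.2. These 4 kept a rank of 12 or better on II in both replicates.

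Other strong sites were narrow, and 4 of the 20 were under 500 bp. The site at 8561133 to 8561606, 474 bp wide, had 56.9 in the series-level list and 42.0 and 38.9 in replicates 1 and 2, where it ranked 5 on II both times. The sites at 6951302 to 6951798 (497 bp) and 11874546 to 11874976 (431 bp) had series-level strengths of 49.2 and 46.6. At 8561133 the replicate sites were 459 and 447 bp wide, so the width repeated too. Of intermediate width, the site at 5543294 to 5544545 (1252 bp) had 81.0 at series level, 42.6 in replicate 1 and 39.3 in replicate 2 and ranked 4 on II in all 3 lists. The site at 5844345 to 5845196 (852 bp) had 67.6, 31.9 and 37.3 in the same lists.

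Each arm had 1 site among the 20. In the left arm it lies at 4745248 to 4745715. It is 468 bp wide, with 53.2 in the series-level list, 25.6 in replicate 1 and 34.7 in replicate 2. The next strongest of the left arm, at 3958216 to 3959514, had 35.9. In the right arm a pair of sites lies at 14039738 to 14040882 and 14043860 to 14044936. Their series-level strengths were 58.7 and 40.3, and the stronger had 26.3 in replicate 1 and 31.1 in replicate 2.

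The site at 5333727 to 5339858, in the centre with 68.7 at series level, is described with the widest sites below. Another 7 sites of the 20 lie in the centre and had series-level strengths of 41.4 to 55.1. The site at 9059919 to 9062491 was cut into 2 pieces in each replicate and ranked 22 on II in replicate 1 and 32 in replicate 2. A pair of neighbours lies at 9600862 to 9602186 and 9602513 to 9606243, with 41.4 and 45.5. The rest of these 7 are at 7887119 to 7887736 (54.9), 7072430 to 7073523 (47.7), 11619050 to 11620856 (45.9) and 9984647 to 9985519 (43.9).

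The widest sites were not always strong in the replicates. The site at 5333727 to 5339858, 6132 bp wide and rank 7 on II, was cut into 3 pieces in each replicate. Its best pieces had strengths of 10.6 in replicate 1 (rank 71 on II) and 20.0 in replicate 2 (rank 22). The site at 9618455 to 9622878, 4424 bp wide, was called as 1 piece in each replicate with 8.71 and 12.9, covering 91.7% and 72.9% of it. Of the 320 sites, 8 were cut into pieces in at least 1 replicate. Those 8 had a median width of 2539 bp, and the 312 others 475 bp.

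Replicates gave largely the same sites on II. Of the replicate 1 sites, 325 of 409 overlapped a replicate 2 site (79.5%, 75.2 to 83.3), where the share over the whole list was 77.5%. Of the replicate 2 sites, 325 of 450 overlapped a replicate 1 site (72.2%, 67.8 to 76.3), against 71.4% over the whole list. Neither share differed detectably from that of the other autosomes, 77.3% and 71.2% (Fisher's exact test, adjusted p = 0.499 and 0.685; intervals of the difference -2.43 to 6.31 and -3.68 to 5.52 points). By domain the replicate 1 shares were 77.8% in the left arm, 80.1% in the centre and 78.7% in the right arm, so the thin left arm repeated about as often as the rest.

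Positions and strengths repeated closely as well. Across the 319 sites of II that overlapped one to one, midpoints differed by a median of 31 bp, and 278 pairs (87.1%) lay within 100 bp of each other. Spearman's rho of the strengths was 0.78, with 0.76 to 0.81 on the other autosomes. These are descriptions across sites, which share their libraries. In 194 of the 319 pairs the replicate 2 value was the higher one. The median ratio of replicate 1 to replicate 2 was 0.907 on II, against 0.951 on III, 0.968 on V and 0.977 on IV. On I, 184 of 368 pairs were higher in replicate 2. These differences were not tested.

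**Figure D3:**
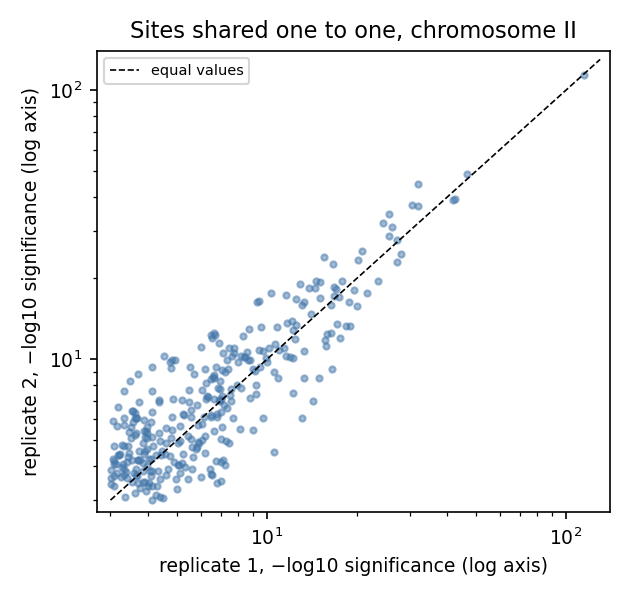
Strength (−log10 significance) of the 319 one-to-one shared sites of chromosome II in replicate 1 and replicate 2, on log axes. The dashed line marks equal values, and 194 points lie above it.

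Recovery fell with strength. The sites of II were split into 5 quintiles by strength within each list. In replicate 1 the share found in replicate 2 was 100% in the strongest quintile (82 of 82), then 98.8%, 79.3% and 67.1%, and 51.9% in the weakest. In replicate 2 the share found in replicate 1 was 98.9%, 86.7%, 70.0%, 66.7% and 38.9%. On the other autosomes the replicate 2 shares were 100%, 93.98%, 73.3%, 53.1% and 35.3%. They were above those of II in the 3 stronger quintiles and below them in the others. In the second quintile the counts were 78 of 90 on II and 359 of 382 on the other autosomes. In the fourth they were 60 of 90 and 203 of 382. These differences by quintile were not tested.

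On II, 84 of 409 replicate 1 sites and 125 of 450 replicate 2 sites had no partner. The counts on the other autosomes were 399 of 1758 and 551 of 1910. The strongest unpartnered sites of II were moderate. In replicate 2 the first of them, at 6835481 to 6837435, was 1955 bp wide with a strength of 10.5 (rank 83 on II). Others followed at 5948670 to 5949106 (8.99), 9262012 to 9262370 (8.53), 6683524 to 6684012 (7.80) and 14645202 to 14645731 (7.76). In replicate 1 the strongest, at 10785126 to 10785324, had 6.20 (rank 163 on II), and the next were at 7891590 to 7892568 (5.69), 9281484 to 9281993 (5.58), 15226624 to 15227224 (5.51) and 9590815 to 9591385 (5.07). All of these are in the series-level list. Of the replicate sites of II, 1 of 409 and 2 of 450 were absent from it, each with a strength of 4.04 or less.

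**Figure D4:**
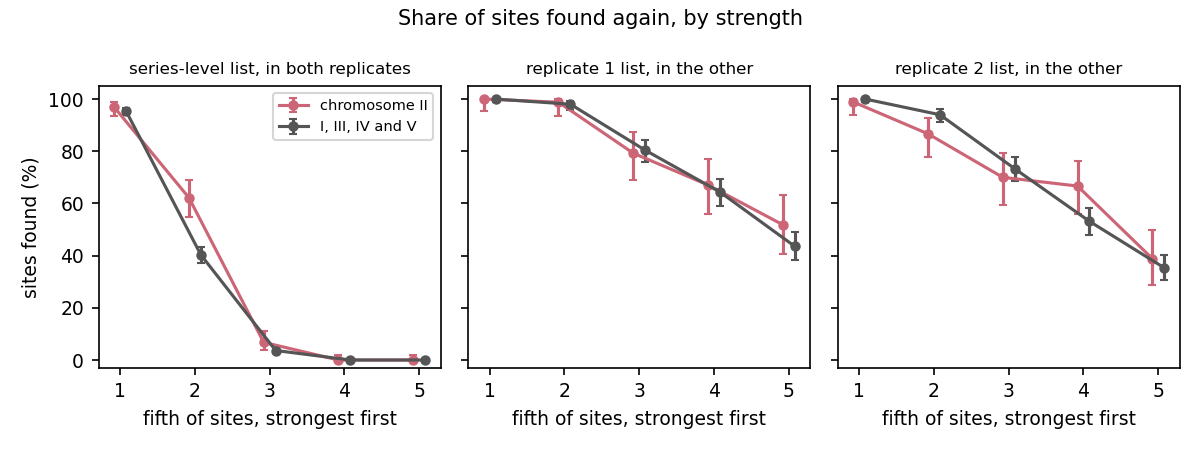
Share of sites found again, by quintile of strength from the strongest to the weakest, for chromosome II and for the 4 other autosomes pooled, with exact 95% intervals. Left, series-level sites found in both replicates. Middle and right, sites of 1 replicate found in the other. On chromosome II the series-level share is 96.9% in the strongest quintile and 62.2% in the next. In each of the 2 weakest quintiles 0 of 192 were found in both. The lowest series-level strength of a site found in both (5.73) comes from these same counts.

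More of the series-level list was found in both replicates on II than on the other autosomes. The share was 33.26% on II (320 of 962) and 27.8% on the others, with 29.3% over the whole list. The difference of 5.42 percentage points (2.24 to 8.70) passed (Fisher's exact test, adjusted p = 0.00552). The 4 others were not alike, since the share was 27.4% on I and 23.2% on IV. Against III (36.7%) and V (29.0%) together, II differed by 0.777 points and did not pass (Fisher's exact test, p = 0.701). On I and IV the series-level strengths also stood higher relative to the replicates, with median ratios to the replicates' sum of 1.40 and 1.39, against 1.09 on II, 1.05 on III and 1.03 on V. The part of this scale in the result was not tested.

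Sites found in neither replicate made up 45.7% of the series-level sites of II (440 of 962), where the whole list has 51.2%. They were narrow and weak, and their medians were 269 bp and a strength of 3.93. The strongest of them, at 12787768 to 12788235, had 8.91 and rank 2097 in the series-level list. The next were at 9274797 to 9275247 (7.99), 5952243 to 5952674 (7.61), 6744354 to 6744443 (7.29) and 6712546 to 6712633 (7.07). The strongest site found in neither reached 70.8 on IV, 14.9 on I, 8.21 on III and 7.65 on V. Sites found in replicate 1 only numbered 82 and in replicate 2 only 120, with median strengths of 6.16 and 6.88. All 3 lists hold only sites with significance values below 0.001, and the weakest site of II found in both had a series-level strength of 5.73. The 2 weakest quintiles of the series-level sites of II reach a strength of 4.92 at most, and 0 of 192 sites in each were found in both. The value of 5.73 comes from these same counts, so it shows no fixed floor of recovery. Sites of II found in 1 replicate only went down to series-level strengths of 3.57 (replicate 1) and 3.35 (replicate 2). The part of the 0.001 cut in the 0 counts was not tested.

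In windows of 100 kb, II held 2.09 sites found in both replicates on average. The fullest window, from 6800001 to 6900000, held 10. The windows from 5300001, 8700001, 9000001, 9600001 and 10500001 held 7 each. All 6 lie in the centre, and 17 windows with 5 or more sites held 32.5% of the 320 sites. On the other autosomes the highest count was 9, and windows with 5 or more held 31.6% of the sites. The order depends on the list. In replicate 1 the highest count was 11 on II and 12 on I, in replicate 2 it was 16 on II and 11 on I, and at series level it was 23 on II and 31 on IV. In replicate 2 the window from 5300001, with 16 sites, was fuller than that from 6800001, with 14. At series level the fullest was that from 5900001, with 23 sites against 20.

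The fullest window was full of moderate sites. Its 20 series-level sites included 10 found in both replicates, 3 in replicate 2 only and 7 in neither. The strongest, at 6890653 to 6892250, had 32.7 in the series-level list, 9.41 in replicate 1 and 16.4 in replicate 2. The next, at 6826583 to 6828149, had 26.95 and was cut into 2 pieces in each replicate. Between 6833118 and 6849709, 8 series-level sites follow each other, at strengths of 6.91 to 18.4, of which 5 were found in both replicates and 3 in replicate 2 only. None of the 10 ranked among the 20 strongest of II.

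Among the 6 windows, series-level sites covered 17762 bp of the fullest one. Only the window from 10500001, which holds the strongest site, had more (24255 bp). The 4 others had 5186 to 17028 bp.

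**Figure D5:**
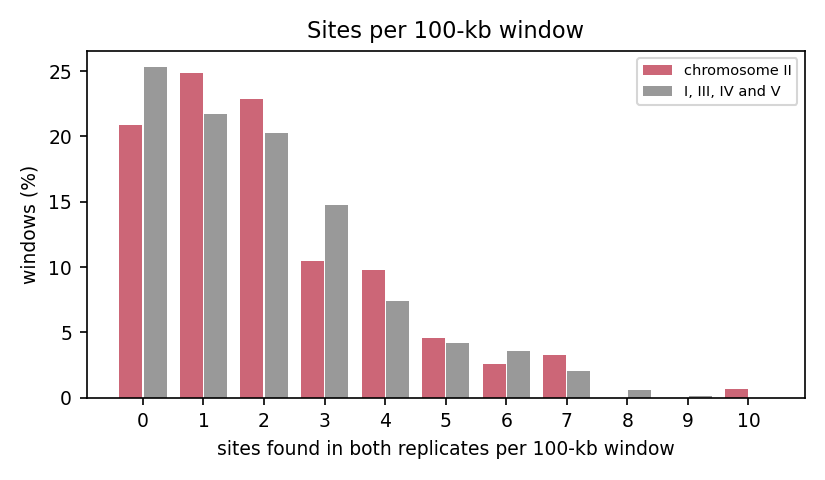
Number of sites found in both replicates per 100-kb window, as a percentage of windows, for the 153 windows of chromosome II and the 672 windows of the 4 other autosomes. Windows with no site made up 20.9% on chromosome II and 25.3% on the others, and 1 window of chromosome II reached 10.

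Empty windows gathered in the left arm. Of the 153 windows of II, 32 (20.9%, 14.8 to 28.2) held no site found in both replicates, compared with 25.3% on the other autosomes (Fisher's exact test, adjusted p = 0.499; difference -4.38 points, -11.02 to 3.40). Of those 32, 22 were in the left arm, where they made up 44.9% of the 49 windows. They made up 9.86% of the 71 windows of the centre and 9.09% of the 33 of the right arm. In the replicate 1 list the empty share was 36.7% in the left arm, 1.41% in the centre and 6.06% in the right arm, and in the replicate 2 list it was 30.6%, 2.82% and 3.03%.

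The 5 longest gaps between sites found in both replicates were all in the left arm. The longest ran from 1502371 to 2289397, over 787 kb, and held 1 replicate 1 site, 2 replicate 2 sites and 12 series-level sites with strengths up to 7.15. Gaps of 428, 405, 359 and 349 kb followed, starting at 3524206, 3077325, 2289824 and 411249. The last 2 of these held no site of either replicate and 6 series-level sites each, with strengths up to 5.13 and 5.33. The same 2 stretches were among the 5 longest gaps of both replicate lists.

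The longest gap of II exceeded those of the other autosomes in the sites found in both replicates, with 763 kb on V, 517 on I, 384 on IV and 338 on III. It did so in replicate 2 too (539 kb, against 462 on V) but not in replicate 1 (695 kb, against 763 on V) or at series level (211 kb, against 223 on V). Gaps over 200 kb numbered 9 on II and 9 to 26 on the other autosomes. In the series-level list the longest stretch of II without any site ran from 873766 to 1084859, also in the left arm, and all 5 longest gaps of that list were there. Most sites lay far closer together than these gaps. The median distance between midpoints of neighbouring sites found in both replicates was 28.2 kb on II, against 19.0 kb on I to 39.8 kb on V, and 69 of 319 distances (21.6%) were under 5 kb.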

How the data were processed

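The authors deposited 3 lists of sites, 1 per ChIP replicate and 1 series-level list. WormBase WS220 is the build, per the file headers, and per their source column the sites were called with PeakSeq. The PeakSeq version and settings, the aligner, the use made of the inputs and the origin of the series-level list were not given in the sources used here. The deposited significance value of each site was taken for a p-value or a q-value, since all lie below 0.001, and turned into −log10 here. Depth is unknown. Shares of II were set against the 4 other autosomes with Fisher's exact test, two-sided, with sites or windows as units and Benjamini-Hochberg adjustment over 7 tests. Intervals of differences are Newcombe intervals. Domains were tested against length with exact binomial tests, over a span that ends at the last listed site (15.3 Mb for II). Limits of the other autosomes are published recombination breakpoints entered by hand. SciPy 1.17.1 and pandas 2.3.3 were used, and the overlap functions were tested on simulated data. Sites named are the 20 strongest and 5 widest series-level sites, the 5 strongest sites without a partner or in neither replicate, the fullest windows, the longest gaps and the sites at the limits. Neighbours of the strongest site and the next strongest sites of each arm were added after their values were seen, as were the tests of the left arm and of III and V for width and strength. Members, lists and tests were chosen with earlier results of these data known.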

Additional observations from a re-analysis of the deposited data

How the results depend on the processing

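P-values take sites as units and share 2 libraries. Of 59 recomputed values, 42 kept their direction and their side of the threshold. The centre share of II ran from 66.3% to 67.3% when either replicate was left out, and the left-arm share from 14.9% to 15.4%, each past its exact binomial test under every alternative run. Differences of II from the other autosomes are in percentage points. For recovery of series-level sites in both replicates, the difference was 0.777, no longer past the threshold, against III and V only. The share of replicate 2 sites found in replicate 1 turned to -5.97 in the stronger 50% of each list. The centre difference (2.72 to 4.14 without a replicate) passed at 7.58 with the limits of II as fractions of length. The difference in broad sites (2.49 to 2.64 without a replicate) passed at 1.99 in the whole series-level list and 8.71 in the stronger 50%, and was -5.97 for sites of 500 bp or wider. The difference in strong sites was 0.602 and 0.673 in the replicate lists and 0.245 against III and V. That in empty windows (-5.32 to -4.46 without a replicate) was 0.292 in the whole series-level list and 5.48 in the stronger 50%. The left-arm difference among arm sites (-9.90 to -8.48 without a replicate) passed at -7.50 in the whole series-level list and -22.8 with the fractions of II. Those fractions move every other autosome's limits by construction, and the cause of the other changes was not tested. The stronger 50% of the lists held 465, 200 and 237 sites of II in the series-level list, replicate 1 and replicate 2. No paired analysis was possible because the lists are of ChIP samples alone, with no input list to pair.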

Other observations

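Very small sites were a minor part of the lists on II. Sites under 50 bp numbered 34 of 962 in the series-level list (3.53%), 2 of 409 in replicate 1 and 3 of 450 in replicate 2. On the other autosomes the series-level share was 4.56%. None of the 320 sites of II found in both replicates was under 212 bp.

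The 20 strongest sites of II in each replicate list overlapped the 20 strongest series-level sites in 17 cases each. In replicate 1 the 3 others were the flanking site at 10563135 to 10563947, with a strength of 31.9, and sites at 14043879 and 14561575 in the right arm, with 21.6 and 20.8. The right-arm pair ranked 21 and 22 on II in the series-level list, just below the first 20. The flanking site ranked 111 there.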
